A study of Mus musculus with 12 samples.

Results

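The 10 genes described here, Ccr2, Ly6c2, Plac8, S100a8, S100a9, Mmp8, Chil3, Arg1, F13a1 and Fn1, are transcripts by which monocytes, neutrophils and the macrophages that arise from monocytes are often told from the resident cells of the brain. They were chosen by symbol from the 54532 gene IDs counted in mouse striatum after ischemic stroke. All 10 had a count in at least 1 library and all 10 were among the 19822 genes that passed the filter on low counts. The choice was made with results of these libraries known. F13a1 and Mmp8 had been called lower in mice labelled cGAS-KO than in wild-type (WT) mice at 14 days, so the values of that contrast are given below as a description. Other comparisons that use the 14-day cGAS-KO or 14-day WT libraries share values with that contrast. Their p-values for F13a1 and Mmp8 are therefore not independent of the choice.

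After a stroke, classical monocytes leave the bone marrow with the help of the chemokine receptor CCR2, enter the injured tissue carrying Ly6C on their surface, and lose Ly6C as they mature into macrophages. Neutrophils also enter from the blood, with granules that hold the collagenase MMP8 and a cytosol rich in the calcium-binding pair S100A8 and S100A9. Macrophages in healing tissue can make arginase 1, the secreted lectin CHIL3, coagulation factor XIII subunit A and fibronectin, and microglia, the resident macrophages of the brain, carry little CCR2 or Ly6C.

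The study sequenced striatal RNA from mice labelled cGAS-KO, STING-KO or WT, 14 or 7 days after an ischemic stroke. cGAS senses DNA in the cytosol, and the dinucleotide it makes switches on STING, which induces interferons. The 6 groups were 14-day cGAS-KO, 14-day STING-KO, 14-day WT, 7-day cGAS-KO, 7-day STING-KO and 7-day WT, with 2 libraries each. Every group had a stroke and no uninjured group was analysed. Per the labels, both knockout lines were made with CRISPR-Cas9 and all mice have a C57BL/6J background. No label says that the 2 libraries of a group came from separate mice, so the p-values measure a spread between libraries that may be technical.

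The start sites of 5 of the genes are shown, those with a RefSeq start whose window overlaps no annotated exon. These 5 include genes of both patterns described below. Ly6c2 and S100a9 had their highest group mean at 14 days in the libraries labelled WT. Mmp8, Chil3 and F13a1 had theirs at 7 days in libraries labelled cGAS-KO or STING-KO. Each line gives the 250 bases before the RefSeq start of the gene (GRCm38.p6), 5′ to 3′ on the gene's strand, with matches to the searched motifs in capitals.
Ly6c2, chr15:75111972-75112221, minus strand: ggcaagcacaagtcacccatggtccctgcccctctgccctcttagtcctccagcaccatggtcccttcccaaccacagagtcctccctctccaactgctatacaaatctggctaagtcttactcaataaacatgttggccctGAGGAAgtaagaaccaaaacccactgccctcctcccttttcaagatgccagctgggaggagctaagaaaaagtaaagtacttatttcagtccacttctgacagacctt
S100a9, chr3:90695722-90695971, minus strand: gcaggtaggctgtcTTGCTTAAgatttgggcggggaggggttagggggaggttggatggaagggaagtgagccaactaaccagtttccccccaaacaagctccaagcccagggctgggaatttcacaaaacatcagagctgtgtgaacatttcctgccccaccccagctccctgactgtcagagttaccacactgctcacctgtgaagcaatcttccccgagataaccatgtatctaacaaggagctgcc
Mmp8, chr9:7558179-7558428, plus strand: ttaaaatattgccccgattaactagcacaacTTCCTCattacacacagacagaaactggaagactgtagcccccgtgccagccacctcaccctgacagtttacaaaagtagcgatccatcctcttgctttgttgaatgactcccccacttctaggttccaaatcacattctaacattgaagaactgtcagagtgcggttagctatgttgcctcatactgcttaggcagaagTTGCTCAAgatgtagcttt
Chil3, chr3:106167565-106167814, minus strand: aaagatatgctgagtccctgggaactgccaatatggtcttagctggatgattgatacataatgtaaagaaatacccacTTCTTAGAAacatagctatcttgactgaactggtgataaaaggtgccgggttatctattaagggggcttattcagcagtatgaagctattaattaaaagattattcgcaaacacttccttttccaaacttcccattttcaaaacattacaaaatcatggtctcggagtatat
F13a1, chr13:37050245-37050494, minus strand: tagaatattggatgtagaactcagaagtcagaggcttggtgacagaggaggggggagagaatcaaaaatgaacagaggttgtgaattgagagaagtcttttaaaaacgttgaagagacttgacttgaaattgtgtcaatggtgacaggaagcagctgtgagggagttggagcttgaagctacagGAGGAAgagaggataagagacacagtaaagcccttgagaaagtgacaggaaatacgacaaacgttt

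4 short motifs of myeloid factors were searched on both strands. The PU.1 core GAGGAA was found before Ly6c2, Mmp8 and F13a1, that is in 3 of these 5 windows and in 23.3% of 32851 promoter windows of the same length. The C/EBP half-site pair TTGCNNAA was found before S100a9 and Mmp8, in 2 of 5 windows and in 9.56% of all. The STAT motif TTCNNNGAA was found before Chil3, in 1 of 5 windows and in 7.02% of all. The AP-1 motif TGANTCA was found in 0 of 5 windows and in 6.75% of all. The 2 matches before Mmp8 do not overlap, and a match describes letters only.

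The libraries held 15956242 to 22126213 counts each. Levels are in CPM, counts per 1000000 of the normalised library size, and 3 counts equal 0.133 to 0.195 CPM. Values after ± are SD over 2 libraries for CPM and SE for log2 changes, and counting intervals cover counting error only. Set against WT alone, the CPM of the targeted genes went against the labels in places. Tmem173, the gene of STING, had 2.40 and 5.21 CPM in 14-day libraries labelled STING-KO against 22.3 and 20.8 CPM in 14-day libraries labelled WT. Its 7-day levels ran against the labels, with 20.9 and 23.8 CPM under the STING-KO label and 2.80 and 2.71 CPM under the WT label. Cgas had 4.09 and 6.15 CPM under the cGAS-KO label and 12.6 and 7.68 CPM under the WT label at 14 days. At 7 days Cgas had 5.55 and 5.66 CPM under the cGAS-KO label and 3.25 and 2.97 CPM under the WT label. In 7-day STING-KO libraries Cgas had 11.2 and 12.6 CPM, above both 7-day cGAS-KO libraries. Mean Cgas in 14-day STING-KO was 4.04 CPM, and its libraries overlapped those of 14-day cGAS-KO. The part of cell makeup in the Tmem173 and Cgas levels was not tested. On the first principal component of log2 CPM the 14-day STING-KO libraries (-118 and -90.0) and the 7-day WT libraries (-89.3 and -103) lay at one end, the 4 knockout libraries of 7 days at the other (88.1 to 111). These 2 groups at one end are the groups said below to stand apart. Gene-level counts need not show a small CRISPR-Cas9 deletion. Every direction below is therefore one between libraries labelled so, and the genotype names stand for labels throughout.

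Neutrophil genes beside the 3 in the set were uneven: several defining transcripts were close to 0 and others were not. The genes in this paragraph were picked from the listed ones after their values were seen. Ly6g, the surface marker by which mouse neutrophils are sorted, had no count in 10 of the 12 libraries and 0.103 and 0.0530 CPM in the other two. The granule genes Camp, Ltf, Ngp and Elane stayed at or below 0.401, 0.284, 0.420 and 0.212 CPM, and Mpo at or below 0.562 CPM, in every library. Retnlg reached 1.40 CPM and the chemokine receptor gene Cxcr2 2.22 CPM in 14-day WT replicate 1, against at most 0.344 and 0.953 CPM in the other 11. Other genes of the same lists were clearly counted. Mmp9, the gelatinase of neutrophil granules, had 10.6 and 2.57 CPM in 7-day cGAS-KO, 8.09 and 9.48 CPM in 7-day STING-KO and 1.80 and 2.56 CPM in 7-day WT libraries. Padi4, which citrullinates histones in neutrophils, had 2.88 to 3.84 CPM in the 4 knockout libraries of 7 days and at most 0.549 CPM elsewhere. Haptoglobin (Hp) had 5.01 and 2.26 CPM in 7-day cGAS-KO, 10.8 and 12.7 CPM in 7-day STING-KO and at most 2.47 CPM elsewhere. Lcn2, a secondary granule gene that reactive astrocytes also express, had 5.91 and 25.2 CPM in 7-day cGAS-KO and 20.1 and 38.1 CPM in 7-day STING-KO, against 248 and 21.7 CPM in 14-day WT libraries and at most 3.69 CPM in the other 6. Csf3r, the receptor for granulocyte colony-stimulating factor that microglia also express, was at 9.36 to 162 CPM at 14 days and 7.16 to 143.5 CPM at 7 days. Of the 14 mature neutrophil genes listed, 10 passed the filter, as did 5 of 8 secondary granule genes and 2 of 7 primary granule genes. The set is called the 10 myeloid marker genes, and no value of S100a8, S100a9 or Mmp8 is read as a number of neutrophils.

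**Figure D1:**
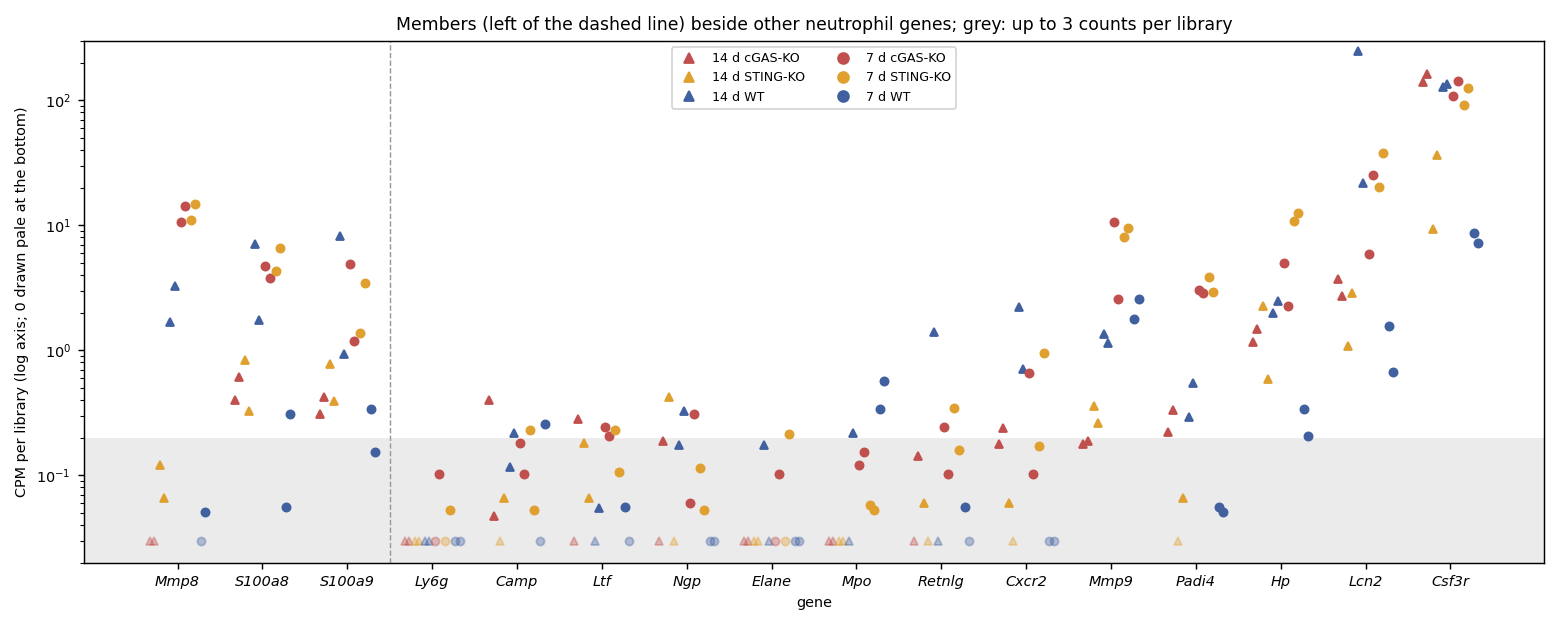
CPM of Mmp8, S100a8 and S100a9 (left of the dashed line) and of 13 other genes that neutrophils express in each of the 12 libraries, on a log axis with zeros drawn pale at the bottom and the range of up to 3 counts shaded grey; triangles are 14-day and circles 7-day libraries, coloured by labelled genotype. Ly6g, Camp, Ltf, Ngp, Elane and Mpo stay below 0.6 CPM in every library, while Padi4, Hp and Lcn2 reach 3.84, 12.7 and 248 CPM and Mmp8 reaches 14.9 CPM.

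The receptor and surface genes of monocytes were high in the 14-day libraries labelled WT and lower in both knockout groups of that time. Ccr2 (ENSMUSG00000049103, chromosome 9, 124101950 to 124113557, plus strand, mm10), the receptor for CCL2, stood at 1.07 and 2.22 CPM in 14-day cGAS-KO, 0.180 and 1.11 CPM in 14-day STING-KO and 9.70 and 12.6 CPM in 14-day WT libraries. The 7-day levels were 19.9 and 14.7 CPM in cGAS-KO, 5.28 and 10.7 CPM in STING-KO and 0.393 and 0.256 CPM in WT libraries. Its highest group mean was that of 7-day cGAS-KO (17.3 ± 3.7 CPM, SD, n = 2), whose libraries both lay above those of 14-day WT, and 14-day WT overlapped 7-day STING-KO. Fewer cells of a type and less RNA per cell cannot be told apart in such bulk libraries.

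Ly6c2 (ENSMUSG00000022584, chromosome 15, 75108158 to 75111970, minus strand) encodes the Ly6C protein of classical monocytes. It had 0.401 and 2.65 CPM in 14-day cGAS-KO, 0.0600 and 0.521 CPM in 14-day STING-KO and 14.95 and 10.1 CPM in 14-day WT libraries. Its levels at 7 days were 3.08 and 1.85 CPM in cGAS-KO, 0.860 and 1.59 CPM in STING-KO and 0.280 and 0.102 CPM in WT libraries. Only the 14-day WT libraries exceeded 3.1 CPM, and no library of another group reached them. Of the 150-base windows of Ly6c2 exons, 1.42% also occur in Ly6c1. Of its 50-base windows, 14.5% occur in Ly6c1 or other genes. Ly6c1 stood at 30.5 to 98.8 CPM at 14 days and 30.2 to 89.4 CPM at 7 days, so part of the Ly6c2 counts is uncertain. Plac8 (ENSMUSG00000029322, chromosome 5, 100553725 to 100572245, minus strand), a small cysteine-rich protein of monocytes and other leukocytes, had 0.178 and 1.51 CPM in 14-day cGAS-KO, 0.480 and 0.651 CPM in 14-day STING-KO and 6.02 and 4.99 CPM in 14-day WT libraries. The 7-day Plac8 levels were 4.71 and 2.52 CPM in cGAS-KO, 1.15 and 1.80 CPM in STING-KO and 0.112 and 0.0511 CPM in WT libraries. The 14-day WT libraries were again above all others, and the 7-day cGAS-KO libraries lay above both STING-KO libraries of 7 days.

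The calprotectin genes S100a8 (ENSMUSG00000056054, chromosome 3, 90668978 to 90670035, plus strand) and S100a9 (ENSMUSG00000056071, chromosome 3, 90692632 to 90695721, minus strand) lie next to each other on chromosome 3 and encode a pair of alarm proteins that bind TLR4. S100a8 had 0.401 and 0.615 CPM in 14-day cGAS-KO, 0.840 and 0.326 CPM in 14-day STING-KO and 7.07 and 1.76 CPM in 14-day WT libraries. The 7-day levels of S100a8 were 4.77 and 3.76 CPM in cGAS-KO, 4.30 and 6.57 CPM in STING-KO and 0.0561 and 0.307 CPM in WT libraries. The 3 highest groups overlapped each other and all lay above the other 3. S100a9 had 0.312 and 0.426 CPM in 14-day cGAS-KO, 0.780 and 0.391 CPM in 14-day STING-KO and 8.18 and 0.933 CPM in 14-day WT libraries. Those of 7 days were 4.89 and 1.18 CPM in cGAS-KO, 1.38 and 3.44 CPM in STING-KO and 0.337 and 0.153 CPM in WT libraries. Replicate 1 of 14-day WT carried most of the S100a9 signal of its group and was also the library with the most Lcn2. Whether the same cells gave both was not tested.

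Mmp8 (ENSMUSG00000005800, chromosome 9, 7558456 to 7568485, plus strand) encodes a collagenase stored in neutrophil granules. It had 0 counts in both 14-day cGAS-KO libraries, 0.120 and 0.0651 CPM in 14-day STING-KO and 1.69 and 3.29 CPM in 14-day WT libraries. Mmp8 levels of 7 days were 10.6 and 14.2 CPM in cGAS-KO, 11.0 and 14.9 CPM in STING-KO and 0 and 0.0511 CPM in WT libraries. The 2 knockout groups of 7 days overlapped, and both lay above every other library.

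Chil3 (ENSMUSG00000040809, chromosome 3, 106147554 to 106167564, minus strand), a chitinase-like lectin secreted by macrophages and by developing myeloid cells, had 0 and 0.426 CPM in 14-day cGAS-KO, 0.0600 and 0.521 CPM in 14-day STING-KO and 0.643 and 0.823 CPM in 14-day WT libraries. Chil3 at 7 days had 19.7 and 11.3 CPM in cGAS-KO, 8.60 and 9.38 CPM in STING-KO and 0.168 and 0 CPM in WT libraries. All 4 knockout libraries of 7 days were above 8 CPM and no other library reached 1 CPM. Its paralog Chil4 had at most 1 count in any library, and 0% of the 150-base windows of Chil3 occur in another gene. Of the 50-base windows of Chil3, 26.9% occur in Chil4 or Gm6522. Arg1 (ENSMUSG00000019987, chromosome 10, 24915221 to 24927484, minus strand), the arginine-degrading enzyme of alternatively activated macrophages, had 0 and 0.0473 CPM in 14-day cGAS-KO, 0.120 and 0.195 CPM in 14-day STING-KO and 1.81 and 0.439 CPM in 14-day WT libraries. Arg1 at 7 days had 4.04 and 3.86 CPM in cGAS-KO, 7.00 and 13.7 CPM in STING-KO and 0.449 and 0.153 CPM in WT libraries. Here the 7-day STING-KO libraries were above those of 7-day cGAS-KO, the opposite order to Chil3.

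F13a1 (ENSMUSG00000039109, chromosome 13, 36867178 to 37050244, minus strand) encodes the transglutaminase subunit of coagulation factor XIII, which cross-links fibrin and fibronectin and is made by monocytes and macrophages. It had 0.712 and 1.37 CPM in 14-day cGAS-KO, 2.10 and 0.716 CPM in 14-day STING-KO and 8.18 and 9.49 CPM in 14-day WT libraries. F13a1 at 7 days had 91.9 and 75.4 CPM in cGAS-KO, 47.8 and 54.2 CPM in STING-KO and 2.08 and 1.53 CPM in WT libraries. The 7-day cGAS-KO libraries lay above those of 7-day STING-KO, which lay above those of 14-day WT. Fn1 (ENSMUSG00000026193, chromosome 1, 71585520 to 71653200, minus strand), the matrix protein fibronectin, which fibroblasts and endothelial cells also make, had 108 and 119 CPM in 14-day cGAS-KO, 66.3 and 61.0 CPM in 14-day STING-KO and 231 and 185 CPM in 14-day WT libraries. Fn1 at 7 days had 1319 and 523 CPM in cGAS-KO, 1219 and 824 CPM in STING-KO and 65.8 and 69.1 CPM in WT libraries. The 4 knockout libraries of 7 days stood above all others. Short stretches of the exons of F13a1 and Fn1 (74 and 292 bases) overlap exons of other genes on the opposite strand, and reads there cannot be assigned.

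**Figure D2:**
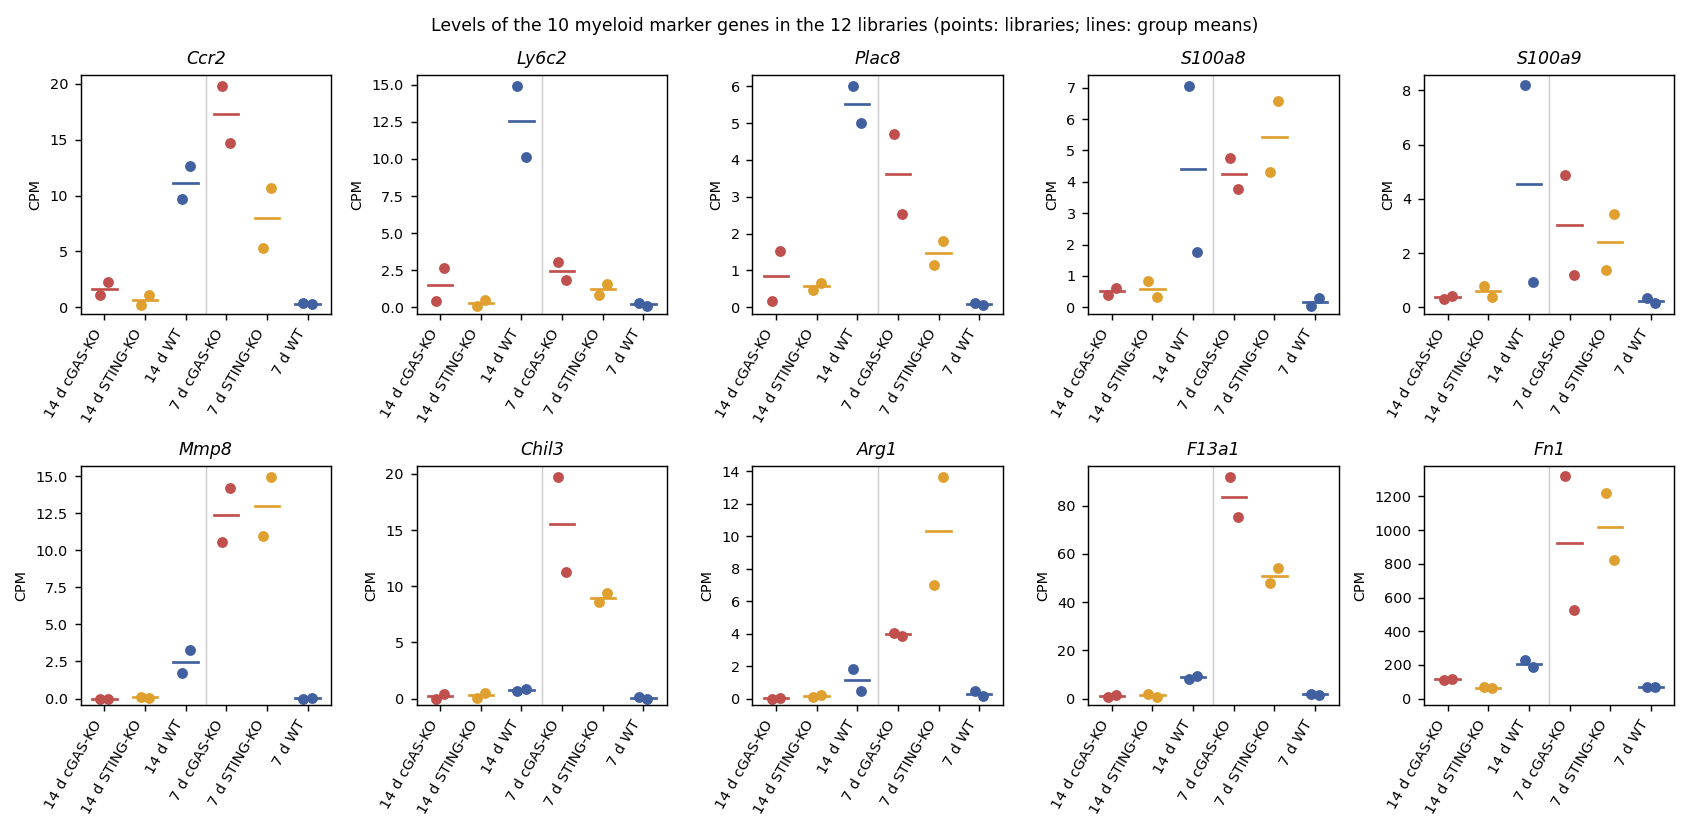
CPM of the 10 genes (1 panel each, linear axes that differ between genes) in the 12 libraries, with 14-day groups left of the grey line and 7-day groups right of it; points are libraries and lines are group means of 2. Ly6c2 peaks in 14-day WT, at 14.95 and 10.1 CPM, while F13a1 peaks in the 7-day cGAS-KO libraries at 91.9 and 75.4 CPM.

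Per kilobase of exon, the scale on which genes can be set side by side, Fn1 was the most abundant of the 10 in every group where the set was high, with mean levels of 17.8 CPM per kb in 14-day WT, 78.8 in 7-day cGAS-KO and 87.4 in 7-day STING-KO libraries. Next in 14-day WT came S100a9 (8.73 CPM per kb), S100a8 (6.36) and Ly6c2 (4.57), while F13a1 stood at 1.31. The S100a9 and S100a8 means rest mostly on replicate 1, at 8.18 and 7.07 CPM against 0.933 and 1.76 CPM in replicate 2. Their place above Ly6c2 is thus one of means only. In 7-day cGAS-KO libraries F13a1 (12.4 CPM per kb) and Chil3 (9.50) followed Fn1, and in 7-day STING-KO libraries S100a8 (7.83) and F13a1 (7.57) did, before Chil3 (5.51) and Mmp8 (5.34). Without Fn1, the summed level of the other 9 genes was 3.07 and 9.27 CPM in 14-day cGAS-KO, 4.74 and 4.49 CPM in 14-day STING-KO and 58.2 and 44.5 CPM in 14-day WT libraries. At 7 days the same sum was 164 and 129 CPM in cGAS-KO, 87.3 and 116 CPM in STING-KO and 3.87 and 2.61 CPM in WT libraries. This sum was thus high in 3 groups and low in 3, and each labelled genotype had a low group. F13a1 gave 91.9 and 75.4 CPM of it in 7-day cGAS-KO, and single genes did not all follow it. Mean Ly6c2 was 1.525 CPM in 14-day cGAS-KO and 1.225 CPM in 7-day STING-KO. Mean Chil3 was 0.733 CPM in 14-day WT against 15.5 and 8.99 CPM in 7-day cGAS-KO and STING-KO.

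In the 14-day libraries labelled STING-KO the set was lower than in those labelled WT. Of the 10 genes, 8 fell past the threshold (edgeR's quasi-likelihood test, Benjamini-Hochberg adjusted p below 0.05 over all 19822 genes), where 17.4% of all genes tested were called lower. The median log2 change was -2.89 over the 10 genes and -0.03 over all genes. Ly6c2 fell by 5.44 ± 0.77 on the log2 scale (SE; adjusted p = 0.000339) and Ccr2 fell by 4.14 ± 0.58 (adjusted p = 0.000332). F13a1 fell by 2.62 ± 0.36 (adjusted p = 0.000318), and Fn1, the least changed of those called, fell by 1.71 ± 0.35 (adjusted p = 0.00379). Plac8, S100a8 and Mmp8 also fell. The 14-day WT libraries entered the choice of F13a1 and Mmp8, so the falls of both genes are not independent of it. Mmp8 rested on 3 counts in the 2 STING-KO libraries against 89 in the WT libraries, a ratio of WT over STING-KO of 26.9 with an exact 95% counting interval of 8.91 to 133. Arg1 passed narrowly (-2.77 ± 1.01, adjusted p = 0.0497), and it did not pass without 14-day WT replicate 1 (-1.46, adjusted p = 0.453) or without 14-day STING-KO replicate 1 or 2 (adjusted p = 0.234 or 0.132). S100a8 (-2.87 ± 0.73, adjusted p = 0.00997) had adjusted p = 0.13 without 14-day WT replicate 1 and 0.0623 without 14-day STING-KO replicate 2. S100a9 (-2.91 ± 1.07, adjusted p = 0.0561) and Chil3 (-1.36 ± 1.04, adjusted p = 0.336) did not pass. The 14-day STING-KO libraries are a group that stands apart, and markers of other cells differed there too. Homeostatic microglia genes were lower in 12 of 12 cases, with a summed level of 596 and 1135 CPM against 2632 and 2765 CPM in WT libraries. Oligodendrocyte genes were lower in 7 of 8 cases, with 8567 and 8859 CPM against 21420 and 20420 CPM, and fibroblast genes in 6 of 11. Striatal projection neuron genes were higher in 10 of 10 cases, in a background of 16.5% called higher, with summed levels of 5965 and 6302 CPM under the STING-KO label and 1011 and 774 CPM under the WT label (median log2 change 2.74). The part of these shifts in the changes of the 10 genes was not tested.

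In the 14-day libraries labelled cGAS-KO each of the 10 genes had both libraries below both libraries labelled WT. The background for such a separation was 20.2% of all genes, and since these genes were chosen from results of this contrast, their values are a description. The fitted log2 differences were -2.77 ± 0.46 for Ccr2, -3.05 ± 0.54 for Ly6c2, -2.72 ± 0.52 for Plac8 and -3.09 ± 0.36 for F13a1. They were -3.10 ± 0.70 for S100a8, -3.59 ± 1.09 for S100a9, -1.80 ± 1.03 for Chil3 and -0.88 ± 0.34 for Fn1. Mmp8, with 0 counts against 89 in the WT libraries, was at least 36.6-fold lower when 3 counts are allowed over the group. Arg1 had 1 count against 39, a ratio of WT over cGAS-KO of 48.1 with an exact 95% counting interval of 8.14 to 1949. The calls of F13a1 and Mmp8 in this contrast (0.0303% of all genes were called lower) were known when the genes were chosen, so nothing is read from them. Without the 14-day STING-KO and 7-day WT groups in the fit the F13a1 difference was -3.10 ± 0.28. The 12 homeostatic microglia genes summed to 2297 and 2263 CPM in 14-day cGAS-KO against 2632 and 2765 CPM in 14-day WT libraries, with a median log2 difference of -0.15. Border macrophage genes summed to 88.6 and 96.6 CPM in 14-day cGAS-KO against 183 and 196.5 CPM in 14-day WT libraries, and striatal projection neuron genes to 1635 and 2706 CPM against 1011 and 774 CPM. This comparison and the one before it share the 14-day WT libraries.

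At 7 days the order was turned round. Of the 10 genes, 10 rose in the libraries labelled cGAS-KO against those labelled WT, in a background of 27.8% of genes called higher, and 8 rose in the libraries labelled STING-KO, in a background of 26.3%. The median log2 change of the 10 genes was 4.91 in cGAS-KO and 4.72 in STING-KO, against 0.04 and 0.03 over all genes. Both comparisons rest on the same 7-day WT libraries, which stand apart from the rest, and neither can be made without them. In cGAS-KO, F13a1 rose by 5.54 ± 0.33 (edgeR adjusted p = 3.02e-07), Ccr2 by 5.71 ± 0.61 (adjusted p = 1.29e-05) and Fn1 by 3.77 ± 0.38 (adjusted p = 1.22e-05). Ly6c2 rose less, by 3.65 ± 1.0 (adjusted p = 0.00907), and S100a9 by 3.58 ± 1.31 (adjusted p = 0.0400). Without 7-day WT replicate 2 these stood at adjusted p = 0.0832 and 0.19, without 7-day cGAS-KO replicate 1 at 0.0558 and 0.329, and S100a9 stood at 0.118 without 7-day WT replicate 1.

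In the 7-day libraries labelled STING-KO, F13a1 rose by 4.82 ± 0.32 (adjusted p = 5.07e-07), Arg1 by 5.10 ± 0.60 (adjusted p = 1.58e-05) and S100a8 by 4.82 ± 0.84 (adjusted p = 0.000551). Ccr2, Plac8, Mmp8, Chil3 and Fn1 rose too. Plac8 stood at adjusted p = 0.0746 without 7-day WT replicate 2. Ly6c2 (2.68 ± 1.13, adjusted p = 0.0690) and S100a9 (3.30 ± 1.35, adjusted p = 0.0629) did not pass, although the libraries of the 2 groups did not overlap, as for 41.7% of all genes. Plac8, Mmp8 and Chil3 had 3, 1 and 3 counts over the 2 WT libraries, so their folds are given as count ratios with exact 95% counting intervals. Mmp8 was 468-fold higher in cGAS-KO (83.6 to 18530) and 487-fold higher in STING-KO (87.0 to 19270). Chil3 was 189-fold higher in cGAS-KO (64.3 to 919) and 112-fold higher in STING-KO (38.1 to 547). Plac8 was 44.0-fold higher in cGAS-KO (14.7 to 216) and 18.5-fold higher in STING-KO (6.01 to 92.7).

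**Figure D3:**
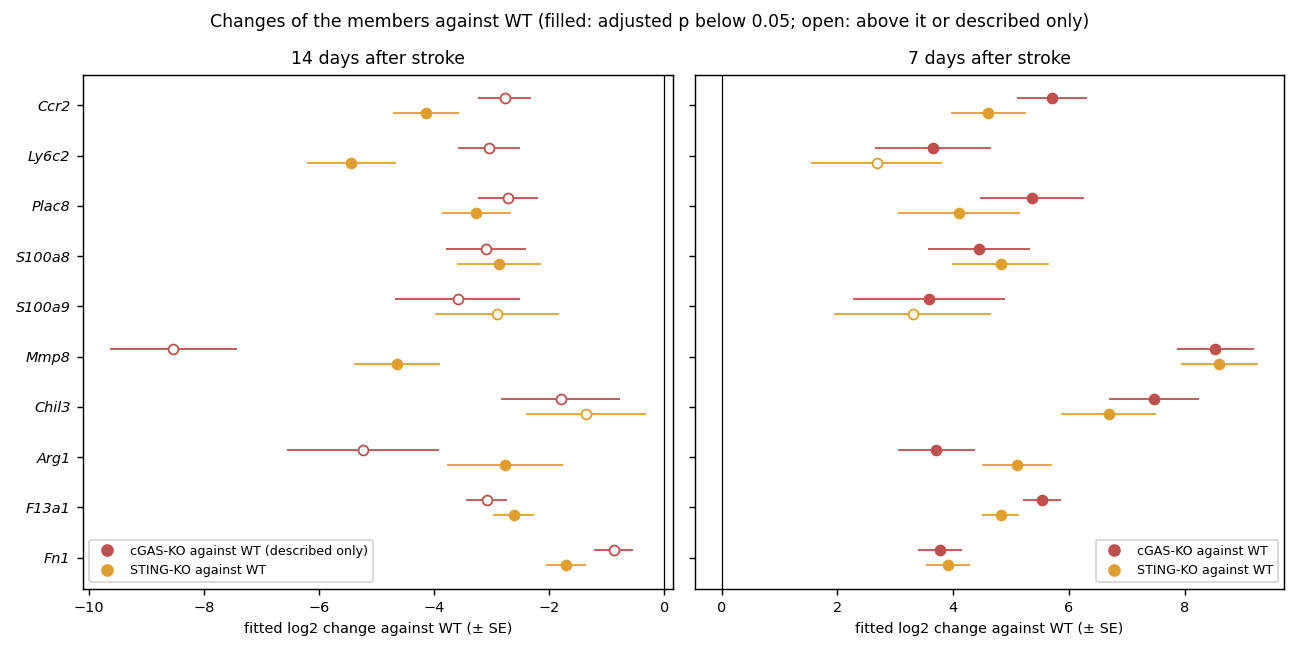
Fitted log2 changes (± SE) of the 10 genes in libraries labelled cGAS-KO (red) and STING-KO (yellow) against WT at 14 days (left) and 7 days (right); filled points have edgeR adjusted p below 0.05, and cGAS-KO at 14 days is drawn open because its values are given as a description. All 10 genes lie below 0 at 14 days, by -0.88 to -8.53, and above 0 at 7 days, by 2.68 to 8.60; fitted values of Mmp8 at both times, of Arg1 at 14 days and of Plac8 and Chil3 at 7 days rest on 0 to 3 counts in a group.

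Markers of other tissue also differed at 7 days. Of 11 fibroblast genes, 11 were higher in cGAS-KO and 11 in STING-KO, with summed levels of 5084 and 3321 CPM in cGAS-KO and 2308 and 1851 CPM in STING-KO and 137 and 128 CPM in WT libraries. Of 10 choroid plexus genes, 10 were higher in each, with 3303 and 6144 CPM in cGAS-KO and 5926 and 3770 CPM in STING-KO and 339 and 215 CPM in WT libraries. Border macrophage genes, which mark macrophages of the meninges and choroid plexus, summed to 1456 and 1708 CPM in cGAS-KO and 1665 and 1396 CPM in STING-KO and 34.2 and 26 CPM in WT libraries, with 11 and 9 of 11 higher. Fn1, F13a1 and Ccr2 are also expressed by some of these cells. Homeostatic microglia genes rose in 12 of 12 cases in both comparisons, and their sums were 3129 and 3534 CPM in cGAS-KO and 3818 and 4308 CPM in STING-KO and 335 and 319 CPM in WT libraries. Neuron genes went the other way, lower in 10 of 10 cases in both comparisons, where 22.4% and 22.6% of all genes were called lower. They summed to 1531 and 2100 CPM in cGAS-KO and 2272 and 1681 CPM in STING-KO and 7547 and 8158 CPM in WT libraries. Slc17a7, the vesicular glutamate transporter of cortical projection neurons, was picked after its values were seen. It had 248 and 366 CPM in cGAS-KO and 213 and 128 CPM in STING-KO and 1272 and 1524 CPM in WT libraries. The striatal projection neuron genes, in contrast, summed to 134 and 418 CPM in cGAS-KO and 182 and 466.5 CPM in STING-KO and 218 and 213 CPM in WT libraries, against 774 CPM or more in every 14-day library. The 7-day WT libraries thus held high neuron transcripts with low striatal ones. The part of dissected tissue and cell makeup in the changes of the 10 genes was not tested.

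The labelled knockouts were also set against each other. At 14 days 0 of the 10 genes passed between cGAS-KO and STING-KO by edgeR, in a background of 35.9% of genes called in either direction, with 2 at an unadjusted p below 0.05 (45.9% of all genes) and 2 by DESeq2. These were Fn1 (0.83 ± 0.35, edgeR adjusted p = 0.0833) and Ly6c2 (2.39 ± 1.02, adjusted p = 0.0883), both higher in cGAS-KO. At 7 days 0 of 10 passed by edgeR and 0 by DESeq2, in a background of 0.161% called, and 4 had an unadjusted p below 0.05 (8.87% of all genes). These were Ccr2 (1.10 ± 0.38, adjusted p = 0.354), Plac8 (1.26 ± 0.52, adjusted p = 0.461) and F13a1 (0.71 ± 0.24, adjusted p = 0.337), higher in cGAS-KO, and Arg1 (-1.39 ± 0.39, adjusted p = 0.207), lower in cGAS-KO. Both cGAS-KO libraries lay above both STING-KO libraries of 7 days for Ccr2, Ly6c2, Plac8, Chil3 and F13a1, as for 19.5% of all genes, and below them for Arg1, as for 21.4%. Mmp8 (-0.06 ± 0.27) and Fn1 (-0.15 ± 0.34) had the smallest differences. Erythrocyte genes summed to 867 and 708 CPM in 7-day cGAS-KO against 49.8 and 88.8 CPM in 7-day STING-KO libraries, and the part of retained blood was not tested.

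Across time, the libraries labelled WT and those of both labelled knockouts moved in opposite directions. In WT, 8 of the 10 genes rose at 14 days against 7 days, in a background of 24.1% called higher (median log2 change 4.34, all genes 0.07). Ly6c2 rose by 6.01 ± 0.79 (edgeR adjusted p = 0.00011), Ccr2 by 5.09 ± 0.63 (adjusted p = 7.38e-05) and F13a1 by 2.30 ± 0.34 (adjusted p = 0.000253). Plac8, with 194 counts at 14 days and 3 at 7 days, was 68.4-fold higher (exact 95% counting interval 23.1 to 335). Mmp8 was 94.2-fold higher (16.5 to 3760). The 14-day WT libraries entered the choice of F13a1 and Mmp8, so the rises of both genes are not independent of it. S100a9 rose by 4.19 ± 1.22 (adjusted p = 0.0170), but without 14-day WT replicate 1 its change was 1.91 with adjusted p = 0.317, and without 7-day WT replicate 1 or 2 its adjusted p was 0.0746 or 0.118. Chil3 (3.09 ± 1.31, adjusted p = 0.0712) and Arg1 (1.89 ± 0.85, adjusted p = 0.0876) did not pass. In the same comparison 12 of 12 homeostatic microglia genes, 10 of 10 striatal projection neuron genes and 7 of 11 fibroblast genes rose, and 8 of 10 neuron genes fell. Of all 19822 genes, 8693 were called in either direction, 4780 of them higher.

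In cGAS-KO, 8 of 10 genes fell at 14 days against 7 days, in a background of 17% called lower (median -3.22, all genes -0.01). F13a1 fell by 6.33 ± 0.35 (adjusted p = 3.36e-06), Chil3 fell by 6.18 ± 0.64 (adjusted p = 3.91e-05) and Ccr2 fell by 3.39 ± 0.45 (adjusted p = 0.000308). The 14-day cGAS-KO libraries entered the choice of F13a1 and Mmp8, so the falls of both genes are not independent of it. Mmp8, with 0 counts at 14 days and 451 at 7 days, was at least 182-fold lower when 3 counts are allowed over the group. Arg1 had 1 count at 14 days and 142 at 7 days, a ratio of 7 over 14 days of 172 (exact 95% counting interval 30.4 to 6839). Ly6c2 stood at -0.69 ± 0.64 (adjusted p = 0.448), and 14-day replicate 2 decided its value. Without that library it was -2.60 with adjusted p = 0.0356, and without 14-day replicate 1 it was 0.10. Plac8 (-2.10 ± 0.55, adjusted p = 0.0126) stood at 0.0852 without 14-day replicate 1 and 0.125 without 7-day replicate 1, and S100a8 (-3.05 ± 0.70, adjusted p = 0.00683) at 0.0605 without 14-day replicate 1. This comparison uses neither of the groups said to stand apart. Its 7-day libraries lay at the other end of the first principal component, at 111 and 88.1, against -10.7 and -1.49 for its 14-day libraries. A fit without the 14-day STING-KO and 7-day WT groups also called 8 genes lower, with F13a1 at -6.32 (adjusted p = 1.4e-05). Markers of other tissue moved between the times as well. Fibroblast genes fell in 11 of 11 cases, with 206 and 206 CPM at 14 days against 5084 and 3321 CPM at 7 days. Choroid plexus genes fell in 10 of 10 cases, with 820 and 518 CPM against 3303 and 6144 CPM. Border macrophage genes fell in 10 of 11 cases, with 88.6 and 96.6 CPM against 1456 and 1708 CPM. Striatal projection neuron genes rose in 9 of 10 cases, in a background of 13.4% called higher, with 1635 and 2706 CPM against 134 and 418 CPM. Of 12 homeostatic microglia genes 2 rose and 3 fell. The part of these shifts in the changes over time was not tested in any of the 3 labelled genotypes.

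In STING-KO, 7 of 10 genes fell at 14 days against 7 days, in a background of 29.5% called lower (median -3.83, all genes -0.04). F13a1 fell by 5.15 ± 0.34 (adjusted p = 5.68e-07), Fn1 fell by 4.0 ± 0.38 (adjusted p = 8.21e-06) and Arg1 fell by 5.99 ± 0.69 (adjusted p = 1.25e-05). Mmp8 had 3 counts at 14 days and 473 at 7 days, a ratio of 7 over 14 days of 139 (exact 95% counting interval 47.3 to 677). The 3 genes that did not pass were Ly6c2 (-2.11 ± 1.08, adjusted p = 0.116), Plac8 (-1.39 ± 0.74, adjusted p = 0.123) and S100a9 (-2.03 ± 1.16, adjusted p = 0.158). They are the 3 genes whose highest group mean was that of 14-day WT. Over the same times 9 of 11 fibroblast, 8 of 10 choroid plexus, 9 of 11 border macrophage and 10 of 12 homeostatic microglia genes fell, and 10 of 10 striatal projection neuron genes rose. Of all 19822 genes, 5426 were called higher.

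**Figure D4:**
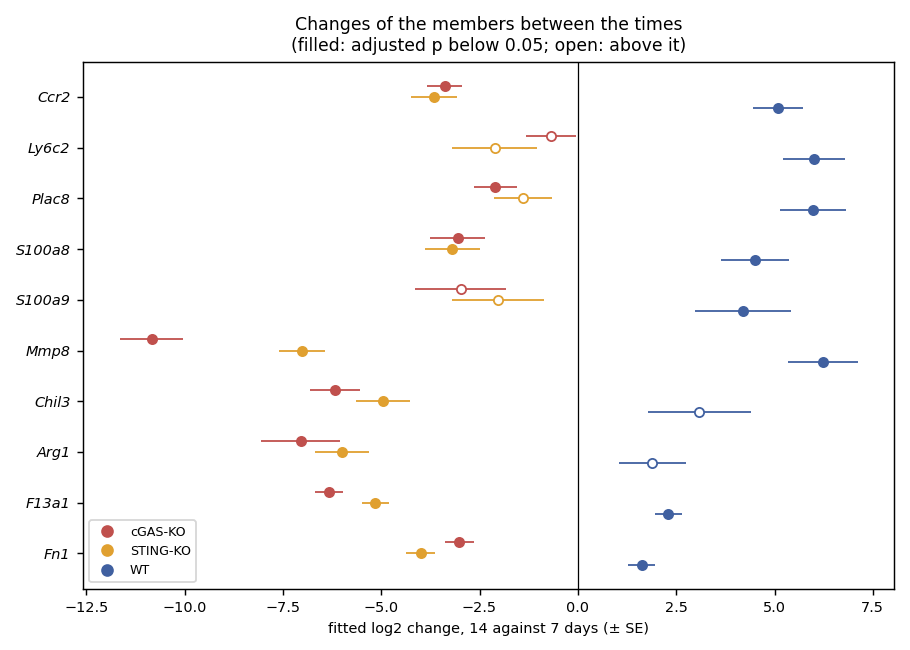
Fitted log2 changes (± SE) of the 10 genes at 14 days against 7 days in libraries labelled cGAS-KO (red), STING-KO (yellow) and WT (blue); filled points have edgeR adjusted p below 0.05. All 10 WT values lie above 0 (1.62 to 6.23) and all 20 knockout values below 0 (-0.69 to -10.84); fitted values of Mmp8 in every genotype, of Arg1 in cGAS-KO and of Plac8 and Chil3 in WT rest on 0 to 3 counts in a group.

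The difference of the STING-KO effect between the times, a test of its own in the same fit, passed for all 10 genes, each lower at 14 days, in a background of 27.6% (median -7.78, all genes -0.03). It was -8.75 ± 0.86 for Ccr2 (adjusted p = 6.26e-06), -7.45 ± 0.48 for F13a1 (adjusted p = 2.75e-07) and -5.63 ± 0.52 for Fn1 (adjusted p = 5.22e-06), the smallest. Both groups that stand apart enter this difference, so it cannot be had without them. The 14-day WT libraries enter it too, and F13a1 and Mmp8 were chosen with results of those libraries known. The matching cGAS-KO difference holds the contrast by which the genes were chosen and was not tested. Its pattern, both libraries above WT at 7 days and both below WT at 14 days, was seen in 10 of the 10 genes and in 10.2% of all genes.

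The 10 genes did not share one pattern over the 6 groups. The highest group mean was that of 14-day WT for Ly6c2, Plac8 and S100a9, that of 7-day cGAS-KO for Ccr2, Chil3 and F13a1, and that of 7-day STING-KO for S100a8, Mmp8, Arg1 and Fn1. For S100a8, S100a9, Mmp8 and Fn1 the top group overlapped the next. The ratio of F13a1 to Ly6c2 counts was 0.547 and 0.940 in 14-day WT libraries, against 29.9 and 40.7 in 7-day cGAS-KO and 55.5 and 34.1 in 7-day STING-KO libraries. The ratio of Chil3 to Ly6c2 was 0.0430 and 0.0815 in 14-day WT and 5.90 to 10 in the 4 knockout libraries of 7 days. For Mmp8 over Ly6c2 the values were 0.113 and 0.326 in 14-day WT and 3.43 to 12.7 in those 4 libraries, and for Ccr2 over Ly6c2 they were 0.648 and 1.25 in 14-day WT and 6.13 to 7.92 in those 4. Plac8 over Ly6c2 differed least, at 0.402 and 0.495 in 14-day WT and 1.13 to 1.53 in those 4. Relative to Ly6c2, F13a1, Chil3, Mmp8, Ccr2 and Plac8 were thus each higher in the 4 knockout libraries of 7 days than in those of 14-day WT. All of these ratios share Ly6c2, whose highest group mean was that of 14-day WT, so they are not separate results. These groups differ in both time and labelled genotype. Under the cGAS-KO label alone, F13a1 over Ly6c2 was 1.78 and 0.518 at 14 days, below both 7-day libraries. Chil3 (0 and 0.161), Mmp8 (0 and 0) and Ccr2 (2.67 and 0.839) over Ly6c2 were also below them. The 14-day cGAS-KO and 14-day WT libraries entered the choice of F13a1 and Mmp8, so the ratios of both genes are not independent of it. Ly6c2 had 9 and 56 counts in the 14-day cGAS-KO libraries. It had 1 to 8 counts in each 14-day STING-KO and 7-day WT library, so their ratios are not given. The parts of time and labelled genotype in these ratios were not tested.

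**Figure D5:**
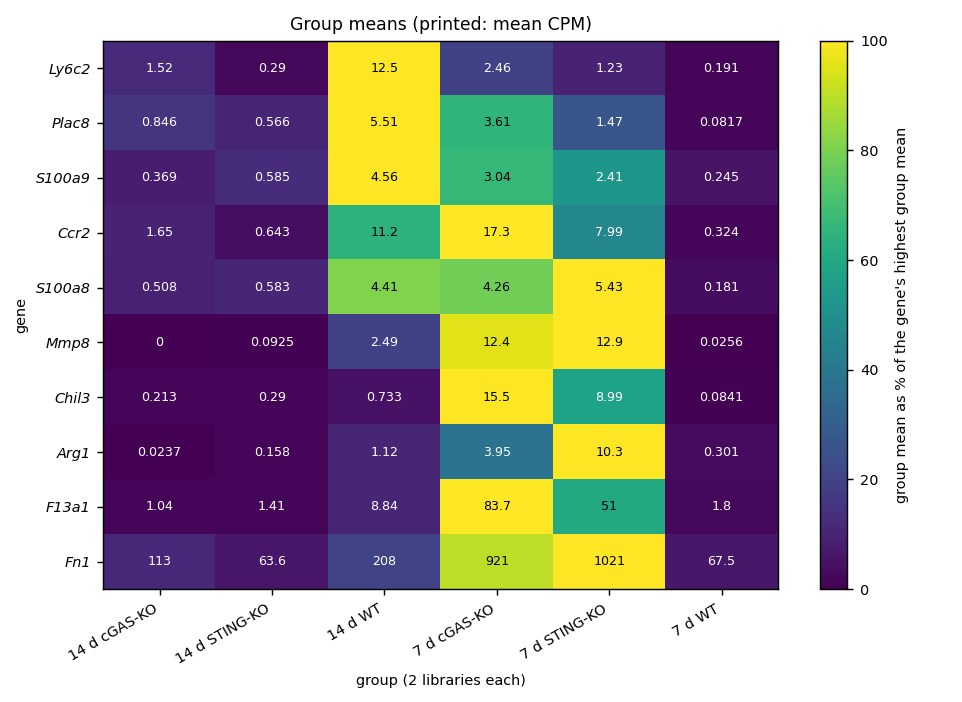
Group means of the 10 genes, coloured as a percentage of the gene's highest group mean and printed in CPM, with 14-day groups in the left 3 columns and 7-day groups in the right 3. Ly6c2, Plac8 and S100a9 are brightest in 14-day WT (12.5, 5.51 and 4.56 CPM), while Chil3 and F13a1 are brightest in 7-day cGAS-KO (15.5 and 83.7 CPM) and Mmp8, Arg1 and Fn1 in 7-day STING-KO (12.9, 10.3 and 1021 CPM).

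Over the 12 libraries, which share their groups and their depth, the log2 CPM of Ly6c2 had a Pearson r of 0.90 with Plac8 but 0.46 with F13a1, 0.47 with Chil3 and 0.39 with Arg1. The genes outside the set most like each member, by the same r over the same 12 libraries, were Slfn4 (0.973), F830016B08Rik (0.972) and Gbp10 (0.969) for Ly6c2. For Ccr2 they were Gm36161 (0.975), H2-Eb1 (0.975) and Fgl2 (0.969), and for Plac8 Gpr18 (0.968), Ms4a4c (0.958) and Tnfsf10 (0.957). Chil3 was most like Folr2 (0.986), a folate receptor of border macrophages, then Fut4 (0.978) and H6pd (0.977). Mmp8 was most like Rab8b (0.986), Mmp27 (0.984) and Mefv (0.981). F13a1 was most like Nxpe5 (0.982), Cd40 (0.971) and F630028O10Rik (0.971), and Fn1 like Atp2a3 (0.994), Tk1 (0.988) and Mcm6 (0.984). For S100a8 the genes were F10 (0.948), Sash1 (0.947) and Sirpb1b (0.943), for S100a9 Dclre1a (0.923), Il18rap (0.923) and Steap4 (0.909), and for Arg1 Serpinb1c (0.963), Tmem38b (0.957) and Rbm44 (0.956). These are descriptions over 6 groups, so many genes reach such values.

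The counts of listed genes that follow stand against shares of all genes called of 16.5% higher and 17.4% lower in 14-day STING-KO, 27.8% higher and 22.4% lower in 7-day cGAS-KO, and 26.3% higher and 22.6% lower in 7-day STING-KO, each against WT. Other monocyte genes moved in the same directions. Of 20 listed, 15 fell and 1 rose in 14-day STING-KO against WT (median log2 change -3.14), and 17 rose and 1 fell in 7-day cGAS-KO, 16 and 1 in 7-day STING-KO (medians 4.91 and 4.51). Thbs1, the matrix glycoprotein thrombospondin 1, had 2.11 ± 0.43 CPM in 14-day STING-KO against 26.4 ± 5.2 CPM in WT libraries and fell by 3.65 ± 0.35 (adjusted p = 5.47e-05). At 7 days Thbs1 had 163 ± 16 CPM in cGAS-KO and 273 ± 105 CPM in STING-KO against 2.94 ± 0.83 CPM in WT libraries, and it rose by 5.79 ± 0.34 and 6.52 ± 0.35. Fcgr4, an activating Fc receptor, fell by 4.27 ± 0.38 in 14-day STING-KO (adjusted p = 3.42e-05) and rose by 6.77 ± 0.47 in 7-day cGAS-KO and 7.24 ± 0.46 in 7-day STING-KO. Homeostatic microglia genes fell in 12 of 12 cases and fibroblast genes in 6 of 11 in 14-day STING-KO. In each knockout at 7 days 12 of 12 and 11 of 11 rose. The part of these cells in the changes of the 20 monocyte genes was not tested. In 14-day cGAS-KO 3 of the 20 monocyte genes were past the threshold, all lower, where 0.0303% of all genes were called lower. They were Clec4d, Slfn4 and Thbs1, with differences of -4.38 ± 0.58, -4.62 ± 0.58 and -2.37 ± 0.30. The list was chosen with earlier results of these data known, so these values are given as a description.

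The ligands of CCR2 and of its relative CCR1 were called in the same directions as Ccr2. Of 7, 6 fell in 14-day STING-KO (median -3.69; the median difference in 14-day cGAS-KO was -1.70), and 7 rose in both knockouts at 7 days (medians 4.92 and 6.15). Ccl2, the chief ligand of CCR2, had 0.358 ± 0.507 CPM in 14-day STING-KO against 4.53 ± 0.20 CPM in WT libraries (-3.69 ± 0.61, adjusted p = 0.000788). At 7 days Ccl2 had 7.24 ± 0.85 CPM in cGAS-KO and 13.7 ± 1.1 CPM in STING-KO against 0.181 ± 0.177 CPM in WT libraries, and it rose by 5.22 ± 0.62 and 6.15 ± 0.57. Between the knockouts at 14 days 4 of the 7 were higher in cGAS-KO, with summed levels of 41.8 and 61.5 CPM against 2.16 and 12.4 CPM in STING-KO libraries. Of all 19822 genes, 3612 were called higher in that comparison. Ccl12, another CCR2 ligand of mice, was higher at 14 days against 7 days in WT by 6.10 ± 0.66 (adjusted p = 4.33e-05).

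Genes that act on the S100 proteins and on neutrophil traffic moved likewise. Of 7 calprotectin receptor genes 6 fell in 14-day STING-KO (median -1.78; in 14-day cGAS-KO -0.70), and 7 rose in both knockouts at 7 days (medians 3.16 and 4.30). Tlr4 fell by 1.62 ± 0.39 in 14-day STING-KO (adjusted p = 0.00745) and rose by 4.30 ± 0.46 in both 7-day comparisons. Cd36, a scavenger receptor for lipids, had 80.7 ± 29.2 CPM in 7-day cGAS-KO and 240 ± 73 CPM in 7-day STING-KO against 0.756 ± 0.201 CPM in WT libraries. Of 5 neutrophil chemoattractant genes tested of 8 listed, 5 fell in 14-day STING-KO, 4 rose in 7-day cGAS-KO and 2 in 7-day STING-KO, and Il1b had 0.193 ± 0.188 CPM in 14-day STING-KO against 5.19 ± 1.59 CPM in WT libraries. Of the 10 mature neutrophil genes tested 5 fell and 1, Fpr1, rose in 14-day STING-KO, and 6 rose in each knockout at 7 days, led by Padi4, Csf3r and Hp.

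Genes around F13a1, Fn1 and Mmp8 gave similar counts. Of 9 clot and fibrinolysis genes tested of 12 listed, 6 fell in 14-day STING-KO (median -1.36; in 14-day cGAS-KO -0.34), and 8 rose in each knockout at 7 days (medians 4.42 and 5.66). Plau, the urokinase that activates plasminogen, had 6.52 ± 3.95 CPM in 14-day STING-KO against 27.7 ± 10.1 CPM in WT libraries (-2.10 ± 0.37, adjusted p = 0.00157). At 7 days Plau had 59.3 ± 2.5 CPM in cGAS-KO and 155 ± 13 CPM in STING-KO against 2.06 ± 0.89 CPM in WT libraries. Of 8 fibronectin receptor genes 6 fell and 2 rose in 14-day STING-KO, and 6 rose in each knockout at 7 days. Itga5, the integrin chain that pairs with beta 1 to bind fibronectin, rose by 5.38 ± 0.30 in 7-day cGAS-KO (adjusted p = 2.48e-07) and by 5.58 ± 0.30 in 7-day STING-KO (adjusted p = 1.53e-07). Of 6 metalloproteinase inhibitor genes 3 fell in 14-day STING-KO, 4 rose in each knockout at 7 days and 1 fell in 7-day cGAS-KO, the last a share near that of all genes.

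Genes around Arg1 and Chil3 moved less uniformly. Of 11 arginine and polyamine genes 5 rose and 2 fell in 14-day STING-KO, and 5 rose and 2 fell in each knockout at 7 days (medians -0.11, 0.31 and 0.49), and the numbers that fell were near the shares of all genes. Sat1, which acetylates polyamines, fell by 1.17 ± 0.15 in 14-day STING-KO (adjusted p = 0.000192), while Arg2, the mitochondrial arginase, rose by 2.63 ± 0.35 there (adjusted p = 0.000267), opposite to Arg1. Of 9 alternative activation genes tested of 12 listed, 3 fell and 1, Egr2, rose in 14-day STING-KO, 5 rose in 7-day cGAS-KO and 3 in 7-day STING-KO, the last near the share of all genes. Mrc1, the mannose receptor, which border macrophages also carry, had 50.5 ± 28.5 CPM in 7-day cGAS-KO and 19.1 ± 4.4 CPM in 7-day STING-KO against 2.17 ± 1.62 CPM in WT libraries. Of 8 myeloid transcription factor genes tested of 10 listed, 6 fell and 1 rose in 14-day STING-KO, 6 rose and 1 fell in 7-day cGAS-KO, and 5 rose and 1 fell in 7-day STING-KO. Spi1, which encodes PU.1, had 8.93 ± 4.23 CPM in 14-day STING-KO against 52.0 ± 2.4 CPM in WT libraries. At 7 days Spi1 had 105 ± 9 CPM in cGAS-KO and 138 ± 6 CPM in STING-KO against 3.82 ± 0.09 CPM in WT libraries. In 14-day cGAS-KO the median differences of the arginine, alternative activation and transcription factor lists were 0.03, -0.55 and 0.09.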

How the data were processed

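PolyA+ RNA of mouse striatum was sequenced in 12 libraries, 2 for each of 6 groups of time and labelled genotype. The authors deposited a raw count for each Ensembl gene in each library. HISAT2, featureCounts and the build mm10 are named in the submitters' processing notes. Tool versions, the annotation release and any strand setting are not given in the sources used here, so reads of overlapping genes on opposite strands cannot be assigned. Symbols and positions come from GENCODE M21, which matched 54409 of the 54532 IDs.

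Counts were analysed with edgeR 4.0.16 and limma 3.58.1 in R 4.3.3. filterByExpr (minimum count 10, minimum total 15) kept 19822 genes. All 12 libraries entered 1 fit of 6 groups with TMM factors, estimateDisp (robust, biological coefficient of variation 0.194) and glmQLFit (robust, not the legacy form), with 6 residual degrees of freedom. Each contrast was tested with glmQLFTest, and its p-values were adjusted over all genes by Benjamini and Hochberg's method (threshold 0.05). The SE of a log2 change is its size divided by the root of F. CPM are counts per 1000000 of the library total times its TMM factor, and principal components and likeness used log2 CPM with a prior count of 2. Groups with 0 to 3 counts of a gene are given as count ratios with exact 95% intervals. The fit was tested on simulated data.

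The 10 genes and the 25 gene lists were chosen with earlier results of these data known, so no p-value was adjusted over a list. The text names the 10 genes, Cgas and Tmem173, the paralogs Ly6c1 and Chil4, the leading genes of each list by adjusted p (4 at most, or 2 where none passed), and the 3 genes most like each member by Pearson r. Other names are marked where they occur. Alternatives were DESeq2 1.42.0, its size factors in edgeR, no filter, a stricter filter, the legacy form, a fit of the compared libraries alone, a block for the replicate number, omission of the 14-day STING-KO and 7-day WT groups, and omission of each library. Promoter windows come from RefSeq (GRCm38.p6), which matched 8 of the 10 genes, all but Arg1 and Fn1. Windows that overlap an annotated exon (Ccr2, Plac8, S100a8) are not shown. Tables and figures used python 3.11.15, pandas 2.3.3, scipy 1.17.1 and matplotlib 3.10.9.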

Additional observations from a re-analysis of the deposited data

Results flagged for a closer look

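The STING-KO effect against WT differed between 14 and 7 days for each of the 10 genes, by the test of that difference. The difference, 14 days minus 7 days on the log2 scale, was -8.75 for Ccr2, -8.12 for Ly6c2 and -7.37 for Plac8. It was -7.69 for S100a8, -6.21 for S100a9, -13.24 for Mmp8, -8.05 for Chil3 and -7.88 for Arg1. It was -7.45 for F13a1 and -5.63 for Fn1. The Mmp8 value rests on 3 counts in 14-day STING-KO and 1 count in 7-day WT libraries and is no bound. Like that of F13a1, it also uses the 14-day WT libraries, which entered the choice of both genes. The comparison uses the 14-day STING-KO and 7-day WT libraries, whose Tmem173 levels of 2.40, 5.21, 2.80 and 2.71 CPM were the lowest of the 12. The homeostatic microglia sums of these libraries, 596, 1135, 335 and 319 CPM, were the lowest of the 12 as well.

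The cGAS-KO libraries gave the same pattern in 10 of the 10 genes and in 10.2% of all genes. In it every library lay above every WT library at 7 days and below every WT library at 14 days. That difference was not tested, because the genes were chosen from results of the 14-day contrast.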

How the results depend on the processing

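In 14-day cGAS-KO against WT, whose calls were known when the genes were chosen, the number past the threshold is given as a description only: it was 2, and it was 8 with DESeq2, 4 with no filter on low counts, 1 without the 14-day STING-KO and 7-day WT groups and 0 to 2 when single libraries were left out. Between cGAS-KO and STING-KO at 14 days it was 0, against 2 with DESeq2, 1 with only the libraries compared, 1 with the replicate block and 0 to 1 when single libraries were left out. Over all genes, 14-day cGAS-KO against WT gave 6 of 19822, against 151 of 16747 with DESeq2 and 29 of 34462 with no filter. It gave 7 of 19248 without the 14-day STING-KO and 7-day WT groups. Between the knockouts at 14 days all genes gave 7112 of 19822, and 7398 of 19437 with DESeq2. There it was 4614 of 18042 with only the libraries compared and 7188 of 19822 with the replicate block. The cause of these shifts was not tested. The other counts stayed within 1.5 times under the 8 settings that keep all libraries of the compared groups. When single libraries were left out they were 8 to 10 in 7-day cGAS-KO against WT, 7 to 8 in 7-day STING-KO against WT, 6 to 9 in 14-day STING-KO against WT, 7 to 9 over time in WT, 6 to 9 in cGAS-KO, 7 in STING-KO, 0 between the knockouts at 7 days and 9 to 10 for the difference of the STING-KO effect. The lone library left in a group was assumed to vary like the other groups. The number of all genes called also moved when single libraries were left out, so these ranges are not particular to the 10 genes.

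Over single genes, 1080 alternative values kept their direction and side of the threshold, 36 passed it, 33 no longer did and 13 changed sign, all 13 when single libraries were left out. The log2 values then ran from -1.04 to 1.09 for S100a9, -0.33 to 0.18 for Mmp8 and -0.96 to 0.33 for Fn1 between cGAS-KO and STING-KO at 7 days. They ran from -1.62 to 1.41 for Plac8, -0.72 to 0.61 for S100a8, -5.38 to 1.69 for Chil3 and -1.01 to 0.51 for F13a1 at 14 days, and from -2.60 to 0.10 for Ly6c2 over time in cGAS-KO.

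Replicate numbers did not pair the libraries: over 15 pairs of groups the correlation of their deviations ran from -0.0923 to 0.196 (median 0.0126). With the replicate block S100a9 passed in STING-KO against WT at 7 days (adjusted p = 0.0311) and 14 days (0.042), Fn1 passed between the knockouts at 14 days (0.0498), and Arg1 no longer passed in 14-day STING-KO against WT (0.0578). Arg1 also missed the threshold with DESeq2's size factors (0.0505), and S100a9 with no filter in 7-day cGAS-KO against WT (0.171), over time in WT (0.0967) and in the difference of the STING-KO effect (0.0663). That difference stood at -3.94 for S100a9 (0.0683) without 14-day WT replicate 1 and at 0.0622 without 7-day STING-KO replicate 2. Depth limits genes with few counts, since 3 counts equal 0.133 to 0.195 CPM.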
